A study of Homo sapiens with 6 samples.

Results

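Eph receptors are the largest family of receptor tyrosine kinases, and the ephrins are their ligands, held on the surface of neighbouring cells. The account below covers 10 genes of this family in T24 cells, 6 receptors (EPHA1, EPHA2, EPHA4, EPHB2, EPHB3 and EPHB4) and 4 ephrins (EFNA1, EFNA5, EFNB1 and EFNB2), found by symbol among 58735 gene rows. The family has 14 receptor and 8 ephrin genes in the table, so 12 genes of it were not among the 10 and are given more briefly. The 10 were chosen by name with their measured FPKM difference between TGF-β1 and control already known. Their changes are therefore given as a description without p-values, and nothing is read from how many of them moved.

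T24 cells are a human cell line derived from a urothelial carcinoma of the bladder and are labelled wild type. The labels put 3 libraries in a group treated with TGF-β1 at 10 ng/ml for 48 h (TGF-b1 below) and 3 in a group kept without it (control below). All cells grew in medium with 10% serum, and total RNA was sequenced as 150 bp read pairs. The labels do not say whether libraries of a group are separate cultures, so spread between them, and p-values built on it, may be technical alone. The design sets treated against untreated cells at a single time.

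Receptor and ligand meet where cells touch, and binding starts signals in both directions, forward through the receptor's kinase and reverse through the ephrin. EphA receptors bind mainly ephrin-A ligands, which a lipid anchor holds in the membrane, and EphB receptors bind mainly ephrin-B ligands, which cross the membrane and end in a PDZ-binding tail. The family is known for cell sorting and repulsion at tissue borders, and in carcinomas for effects on adhesion and migration.

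Between 20743066 and 23721800 fragments were assigned to genes per library, with 93.5 to 95.5% of reads mapped. PMEPA1, a feedback inhibitor of the TGF-β pathway and a known response to it, rose and stood at 68.35 ± 6.12 FPKM in TGF-b1 libraries and 14.1 ± 1.51 FPKM in control libraries (SD, n = 3 each). SMAD7, another such inhibitor, also rose, with a log2 change of 1.14. Of 16 urothelial and epithelial markers 7 were tested. KRT8 and KRT18 were high, whereas KRT5, KRT19 and UPK3A had no fragment in any library. CDH1, EPCAM and GATA3 reached at most 0.057, 0.33 and 0.065 FPKM. The summed level of those 16 markers was 413.8 to 445 FPKM in TGF-b1 and 478 to 645 FPKM in control libraries, and its part in the results below was not tested. Most of that sum was KRT8 (mean 188 and 222 FPKM) and KRT18 (227 and 322 FPKM). Of the 7 tested, 6 had a log2 change below 0 and 1, FOXA1, above it (0.029). Markers of leukocytes, endothelium and fibroblasts stayed under 0.75 FPKM when summed within each list. Control replicate 3 lay with the TGF-b1 libraries in the median level of GC-rich genes (centred log2 -0.070, against -0.022 to -0.13 in TGF-b1 and 0.16 and 0.18 in the other control libraries). Over all genes, by the chi-square per degree of freedom between libraries, it was nearer to TGF-b1 replicates 1 and 2 (14.65 each) than to control replicates 1 (20.35) and 2 (28.9). Counts of calls, and the changes of some genes, are also given without it.

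Levels are in FPKM, fragments scaled by gene length and library size. Different genes can be compared in this unit as far as the annotated exon length fits the transcripts made. By mean level the order was EFNA1, EPHA2, EPHB2, EPHB4, EFNA5, EFNB1, EFNB2, EPHB3, EPHA4 and EPHA1. EFNA1 averaged 258 FPKM over the 6 libraries, more than 98.9% of the genes tested, and EPHA2 averaged 108 FPKM. EPHB2 and EPHB4 changed places in FPKM, with EPHB2 above EPHB4 in the TGF-b1 libraries (25.1 to 28.9 against 9.67 to 12.7 FPKM). In the control libraries EPHB2 was below EPHB4 (9.03 to 10.8 against 12.1 to 15.5 FPKM), an order that depends on the exon lengths used. EPHB3, EPHA4 and EPHA1, all under 0.17 FPKM in every library, did not differ beyond their spread from the next in that order, in either group. Each other neighbouring pair was separate and in the same order in both groups.

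**Figure D1:**
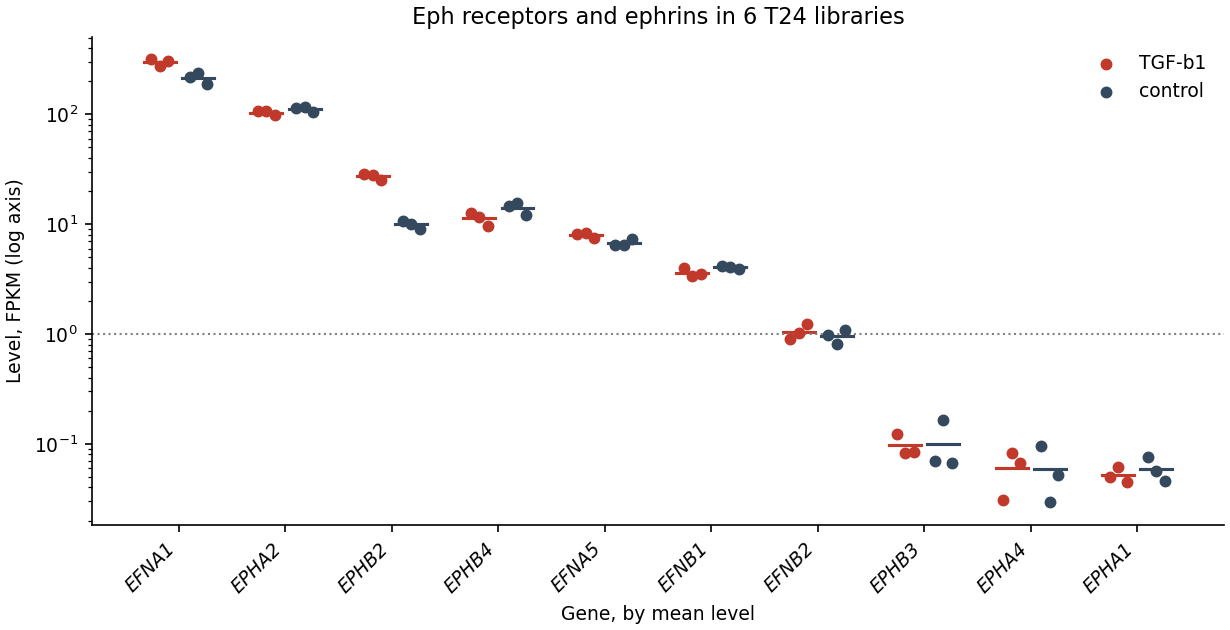
Level of the 10 genes in FPKM on a log axis, by library; points are libraries, short lines group means of 3, and the dotted line is 1 FPKM. The points of EPHB2, EFNA1 and, narrowly, EFNA5 in TGF-b1 libraries lie above all control points of the same gene. EPHB3, EPHA4 and EPHA1 lie far under the dotted line.

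EPHB2 had the largest ratio of TGF-b1 to control level of the 10. This receptor of ephrin-B ligands, known in axon guidance and in the ordering of cells along the intestinal crypt, stood at 28.9, 28.25 and 25.1 FPKM in the TGF-b1 libraries, against 10.8, 10.1 and 9.03 FPKM in the control libraries. The groups were far apart, with the lowest TGF-b1 library at 25.1 FPKM and the highest control at 10.8 FPKM. The means were 27.4 ± 2.04 and 9.97 ± 0.884 FPKM (SD, n = 3 each), a ratio of 2.75, and the counts behind them were 23690 fragments in the 3 TGF-b1 libraries and 8491 in the 3 control libraries. The log2 change of FPKM + 1, a scale that understates changes of low genes, was 1.37 (SE 0.10). EPHB2 lies on chromosome 1 at 22710839 to 22921500 (GRCh38, plus strand), with 12516 exonic bases. In these bulk libraries a change in the share of cells that carry a transcript and a change in its amount per cell cannot be told apart. An antisense gene inside it, AL512444.1, had no fragment in any library, which allows up to 3 in each.

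The counts of the 10 genes past an adjusted p of 0.05 in limma are given only as a description, beside the share of all 11363 genes tested, and nothing is read from them. EPHA1, EPHA4 and EPHB3 did not reach 1 FPKM in 3 libraries and were not tested. Of the other 7, 1 was counted (EPHB2, higher), where 2.44% of all genes were called, 1.14% higher and 1.29% lower. Over all genes 130 were called higher and 147 lower, a split that became 293 higher and 219 lower with a trend with GC content and length removed.

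Other fits of the same 6 libraries reuse the values the genes were chosen with, so their counts add no support. The count was 1 with a pseudocount of 0.1 (2.36% of all genes called), with no filter (0.053%), without limma's trend and robust estimation (1.8%) and with the replicate number as a block (6.75%). It was 2, with EFNA1, at a minimum of 5 FPKM (7.46% of all genes), on total fragments (3.57%), under TMM scaling (2.55%), over protein-coding genes alone (8.45%), by voom on whole fragments (9.32%) and after removal of a GC and length trend (4.51%). It was 1 without TGF-b1 replicate 1 (2.9%), replicate 2 (1.34%) or replicate 3 (1.34%) and without control replicate 1 (1.09%) or replicate 2 (1.55%). Without control replicate 3 it was 4 (EPHB2, EFNA1 and EFNA5 higher, EPHB4 lower), in a fit that called 28.9% of all genes. The log2 change of EPHB2 lay between 1.31 and 1.46 over the 16 alternatives. By the looser measure of groups that do not overlap, EPHB2, EFNA1 and EFNA5 lay above the controls, 3 of 7, where 14.6% of all genes tested did so. None of the 7 lay below, where 12.5% of all genes did. The median log2 change was 0.065 over the 7 and 0.012 over all genes.

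EPHB4, another ephrin-B receptor and one known in vessel formation, had the lowest log2 change of the 7. It stood at 12.7, 11.6 and 9.67 FPKM in TGF-b1 libraries, against 14.7, 15.5 and 12.1 FPKM in control libraries. The groups overlapped, since control replicate 3 lay below TGF-b1 replicate 1. The log2 change was -0.29 (SE 0.12), and -0.39 without control replicate 3. It lies on chromosome 7 at 100802565 to 100827521 (minus strand) and overlaps SLC12A9 on the other strand, which stood at 3.38 ± 0.439 FPKM in TGF-b1 and 4.05 ± 0.813 FPKM in control libraries.

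Because EPHB2 and EPHB4 were read from the same library, their ratio does not depend on how libraries were scaled. It can still move with base composition, since EPHB2 has 55.6% and EPHB4 60.8% GC. With a GC and length trend removed, the log2 changes were 1.38 for EPHB2 and -0.13 for EPHB4. The part of base composition in the ratio was not tested. EPHB2 over EPHB4 was 2.28, 2.43 and 2.60 in the TGF-b1 libraries and 0.736, 0.652 and 0.749 in the control libraries. In FPKM, EPHB4 was thus the higher in every control library and EPHB2 in every TGF-b1 library. The order in control libraries rests on the exon lengths used, 12516 bases for EPHB2 and 6435 for EPHB4. In fragments EPHB2 was above EPHB4 there too (3023, 2855 and 2613 against 2113, 2253 and 1794). Which transcript was the more abundant in control libraries is therefore not settled. The rise of the ratio does not depend on which fixed exon lengths are used. Whether the length of the transcripts made differed between the groups was not measured. EPHB3, an ephrin-B receptor known in the intestinal crypt, had only 30 fragments in the 3 TGF-b1 libraries and 31 in the 3 control libraries. Of the summed FPKM of the 5 EphB genes, EPHB2 made up 70.7 ± 1.36% in TGF-b1 and 41.4 ± 1.88% in control libraries (SD, n = 3 each). The sum itself was 38.9 ± 3.58 and 24.1 ± 2.56 FPKM, and both sum and shares rest on the exon lengths used. EPHB1 and EPHB6 had 3 fragments or fewer in any TGF-b1 library and 4 or fewer in any control library.

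**Figure D2:**
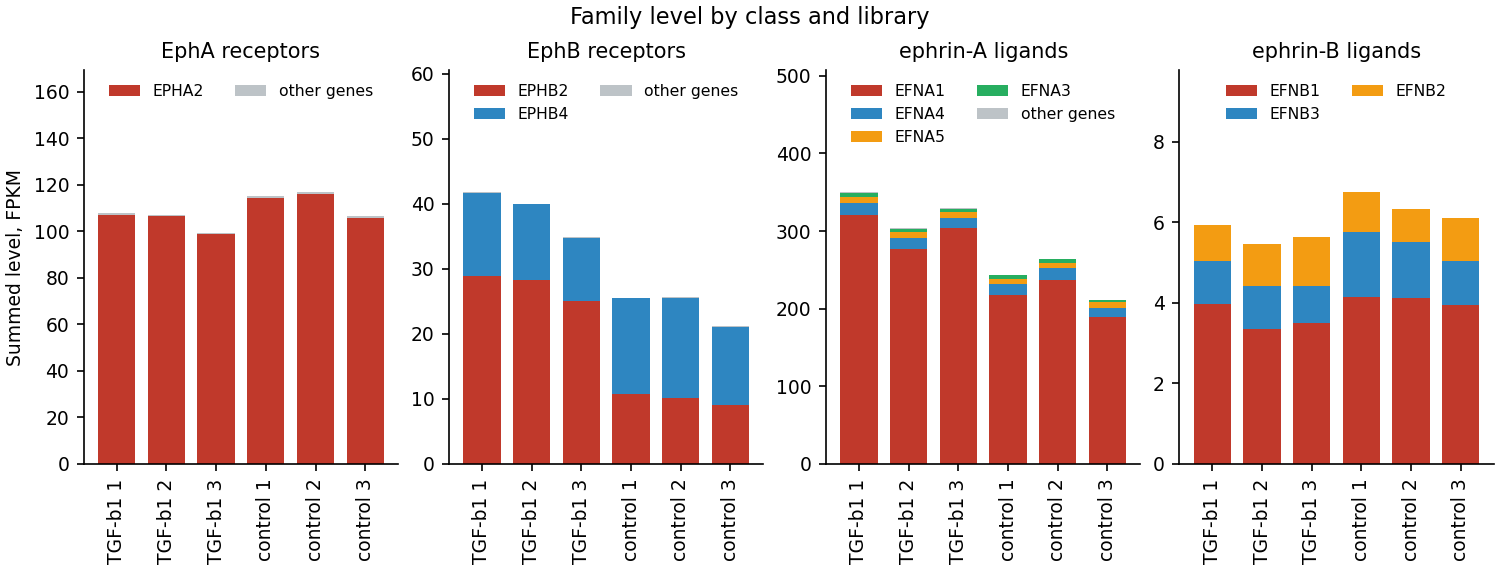
Summed FPKM of the 9 EphA, 5 EphB, 5 ephrin-A and 3 ephrin-B genes in each library, stacked by gene; each panel has its own axis from 0. The EPHB2 part of the EphB bar is 25.1 to 28.9 FPKM in the 3 TGF-b1 libraries and 9.03 to 10.8 FPKM in the 3 control libraries.

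EPHA2, a receptor widely expressed in epithelial cancers that can act with or without its ligand, stood at 107, 106 and 98.7 FPKM in TGF-b1 libraries, against 114, 116 and 105.6 FPKM in control libraries. The groups overlapped, because control replicate 3 lay below TGF-b1 replicates 1 and 2. The log2 change was -0.10 (SE 0.096). It made up 99.3% of the summed FPKM of the 9 EphA genes in TGF-b1 and 99.2% in control libraries. EPHA2 is on chromosome 1 at 16124337 to 16156087 (minus strand). It overlaps AL451042.2 on the other strand, which had 25 fragments in the TGF-b1 libraries together and 34 in the control libraries.

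EPHA1, the founding member of the family, and EPHA4, a receptor that binds both ephrin classes, were near the limit of detection. EPHA1 had 5, 7 and 5 fragments in TGF-b1 libraries and 8, 6 and 5 in control libraries. EPHA4 had 5, 15 and 12 fragments in TGF-b1 and 16, 5 and 9 in control libraries. Differences of a few fragments were not detectable at this depth. EPHA1 also overlaps ZYX on the other strand, and ZYX had 8020 fragments or more in every library, so fragments of EPHA1 and ZYX in the overlap cannot be told apart.

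To show where these receptors start, the bases upstream of their RefSeq starts are given for the 3 most abundant receptors of the family, EPHB2, EPHB4 and EPHA2. Each run reads 5′ to 3′ on the gene's strand and stops before any exon annotated for the gene. Genes on the other strand were not left out. The EPHB4 run lies inside SLC12A9 and the EPHA2 run inside AL451042.2, each on the other strand. Capitals mark matches to 5 motifs searched on both strands, namely CAGAC and GGCGC (SMAD proteins), TGANTCA (AP-1), CACCTG (E-box of SNAIL and ZEB factors) and GGAATG (TEAD factors). GGCGC and its reverse can overlap, as in GGCGCC, and each was then counted. The intervals are chr1:22710588-22710837 (plus strand) for EPHB2, chr7:100827524-100827773 (minus strand) for EPHB4 and chr1:16156088-16156319 (minus strand) for EPHA2, all from RefSeq on GRCh38.p14.

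EPHB2: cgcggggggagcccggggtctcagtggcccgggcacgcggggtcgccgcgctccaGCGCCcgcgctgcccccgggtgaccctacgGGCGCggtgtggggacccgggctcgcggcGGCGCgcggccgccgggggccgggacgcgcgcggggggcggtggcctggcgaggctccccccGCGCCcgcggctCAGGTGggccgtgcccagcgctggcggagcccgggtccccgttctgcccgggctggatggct
EPHB4: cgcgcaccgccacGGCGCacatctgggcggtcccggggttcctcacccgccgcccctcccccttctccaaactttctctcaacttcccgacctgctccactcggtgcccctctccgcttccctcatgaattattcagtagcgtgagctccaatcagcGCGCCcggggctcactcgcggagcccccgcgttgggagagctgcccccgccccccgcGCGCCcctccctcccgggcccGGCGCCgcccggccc
EPHA2: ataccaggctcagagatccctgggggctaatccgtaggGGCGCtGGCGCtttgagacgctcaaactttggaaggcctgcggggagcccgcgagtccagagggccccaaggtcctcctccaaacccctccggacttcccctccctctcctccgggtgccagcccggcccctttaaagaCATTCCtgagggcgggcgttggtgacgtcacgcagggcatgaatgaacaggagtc

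The EPHB2 run held 4 GGCGC matches and 1 E-box match, the EPHB4 run 5 GGCGC matches, and the EPHA2 run 2 GGCGC matches and 1 TEAD match. Over the full windows of 300 bases, GGCGC occurred in all 10 genes and in 48.3% of 27305 RefSeq promoters, and CAGAC in 3 of the 10 (EPHA4, EPHB3 and EFNA1) and in 45% of promoters. The E-box motif was in EPHA1, EPHB2 and EFNB2 and in 20.6% of promoters, the TEAD motif in EPHA2 alone and in 14%, and the AP-1 motif in none of the 10 and in 7.76%. The EPHB2 window is 83.0% G and C, higher than 99.2% of promoters, and that of EPHB4 is 74.3%. These matches describe the letters in these windows, and binding was not measured. The window of EFNA1 lies inside an annotated exon of the gene and is not printed.

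EFNA1, an ephrin-A ligand and a preferred partner of EPHA2, was the most abundant transcript of the family in both groups. It stood at 320.3, 277 and 304 FPKM in the TGF-b1 libraries, against 217, 237 and 189.7 FPKM in the control libraries. Every TGF-b1 library lay above every control library. The means were 300.5 ± 21.7 and 215 ± 23.7 FPKM (SD, n = 3 each), a ratio of 1.40, with a log2 change of 0.49 (SE 0.12). Over the 16 alternatives it lay between 0.40, without control replicate 3, and 0.70, with the GC and length trend taken out. EFNA1 over EPHA2 within a library was 2.99, 2.61 and 3.08 with TGF-b1 and 1.90, 2.04 and 1.80 in control libraries. EFNA1 is on chromosome 1 at 155127460 to 155134857 (plus strand), and no other annotated gene overlaps it.

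EFNA5, an ephrin-A ligand known in axon guidance, stood at 8.13, 8.37 and 7.55 FPKM in TGF-b1 libraries, against 6.53, 6.43 and 7.33 FPKM in control libraries. The groups did not overlap but lay close, with control replicate 3 just below TGF-b1 replicate 3. The log2 change was 0.22 (SE 0.092), and 0.27 without control replicate 3. EFNA5 is on chromosome 5 at 107376889 to 107670895 (minus strand).

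Of the ephrin-B ligands, EFNB1, known in the formation of the skull's sutures, stood at 3.98, 3.36 and 3.49 FPKM in TGF-b1 libraries, against 4.15, 4.11 and 3.94 FPKM in control libraries. TGF-b1 replicate 1 lay inside the control range and the others lay below it. EFNB2, the partner of EPHB4 in blood vessels, stood at 0.894, 1.03 and 1.23 FPKM in TGF-b1 libraries, against 0.979, 0.819 and 1.08 FPKM in control libraries, with ranges that overlapped. The log2 changes were -0.14 (SE 0.093) and 0.065 (SE 0.11). Summed over the 3 ephrin-B genes, the level was 5.67 ± 0.24 FPKM in TGF-b1 and 6.39 ± 0.319 FPKM in control libraries, while EPHB2 over EFNB1 was 7.62 ± 0.682 and 2.45 ± 0.154 (SD, n = 3 each). EFNB1 is on chromosome X at 68828997 to 68842147 and EFNB2 on chromosome 13 at 106489731 to 106535662.

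Base composition moved with the groups in these libraries. Among the 3781 tested genes richest in GC (53.4% and above) the median log2 change was -0.18, and among the 3781 poorest (43.8% and below) it was 0.15. EPHB4, EPHA2 and EFNB1, whose log2 changes were below 0, have 60.8, 60.3 and 60.5% GC, and EFNA5, at 0.22, has 43.2%. EPHB2 and EFNA1, at 55.6 and 58.5% GC, had log2 changes above 0. With the trend removed EPHB2 was at 1.38 and EFNA1 at 0.70, EFNA5 at 0.11 and EPHB4 at -0.13, while the signs of EPHA2 (0.10) and EFNB1 (0.089) turned. No direction is therefore given for EPHA2 and EFNB1, and the part of base composition in the other changes was not tested.

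**Figure D3:**
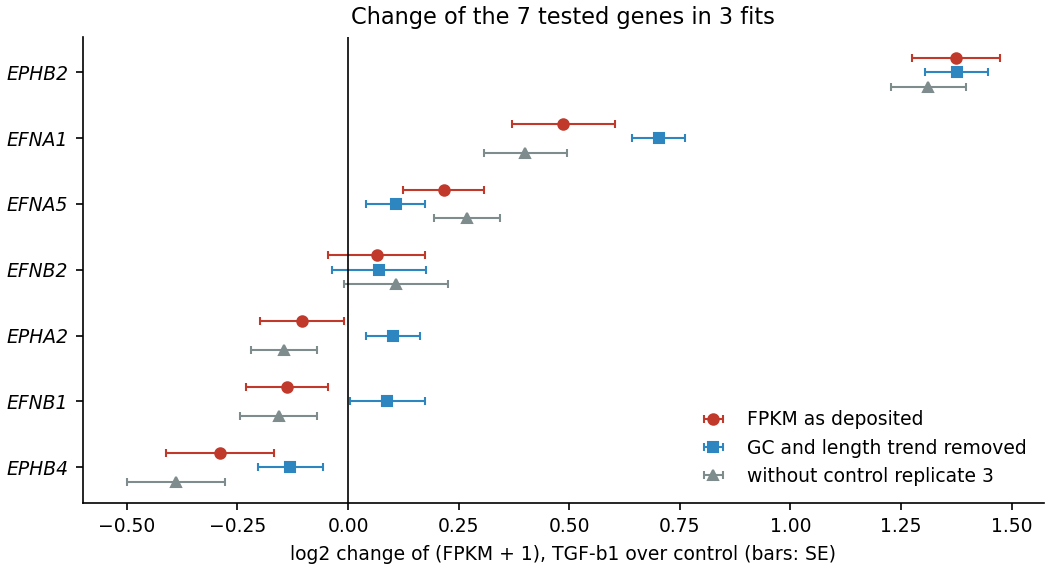
log2 change of FPKM + 1, TGF-b1 over control, with its SE, for the 7 tested genes in 3 fits of the same libraries. EPHB2 stays between 1.31 and 1.38 in all of them, EFNA1 between 0.40 and 0.70, and EPHA2 and EFNB1 lie on either side of 0.

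Of the remaining 12 genes of the family, 3 were tested. EPHA5, EPHA6, EPHA7 and EPHA8 had no fragment in any library, which allows up to 3 in each. EFNA3, EFNA4 and EFNB3 were the ones tested, and none passed in limma, nor at an unadjusted p under 0.05, nor by voom. EFNA4 stood at 13.9 ± 1.65 FPKM in TGF-b1 and 13.8 ± 2.51 FPKM in control libraries (adjusted p = 0.94 in limma, n = 3 each). EFNA3 stood at 4.44 ± 0.251 and 4.10 ± 1.06 FPKM (adjusted p = 0.63 in limma). The higher TGF-b1 mean rests on control replicate 3, which at 2.88 FPKM lay below every TGF-b1 library. Control replicates 1 and 2 (4.70 and 4.72 FPKM) lay above TGF-b1 replicates 2 and 3 (4.24 and 4.37 FPKM). With all 6 libraries EFNA3 was at an adjusted p of 0.041 in limma with a log2 change of 0.38 once the GC and length trend was removed. EFNA3 and EFNA4 share exons with an annotated readthrough gene, AL691442.1, which is listed at 0. That value does not show that no readthrough was made. How fragments in the shared exons were assigned is not given, so the levels of EFNA3 and EFNA4 may leave some out. EFNB3, an ephrin-B ligand known in the midline of the nervous system, stood at 1.06, 1.06 and 0.915 FPKM in TGF-b1 libraries, against 1.61, 1.41 and 1.09 FPKM in control libraries, with no overlap (log2 change -0.23, SE 0.11, adjusted p = 0.22 in limma). EPHA10, a receptor that lacks kinase activity, was under the filter at 0.528 ± 0.091 FPKM in TGF-b1 and 0.685 ± 0.0653 FPKM in control libraries (SD, n = 3 each), and EPHA3 had 31 and 53 fragments in all. EFNA2 was under the filter, with 16, 16 and 16 fragments in TGF-b1 and 9, 2 and 6 in control libraries, and was named after its values were seen.

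Among all 58 receptor tyrosine kinase genes, EPHA2 had the highest mean level in both groups. Its lowest library, at 98.7 FPKM, was above the highest library of EGFR, at 42.2 FPKM, and of AXL, at 39.7 FPKM. EPHB2 ranked 5 of 58 in TGF-b1 and 10 of 58 in control libraries. Its neighbours were close, with MET just above it in TGF-b1 libraries (means 28.4 and 27.4 FPKM). In control libraries FGFR4 lay just below it (means 9.92 and 9.97 FPKM). All these ranks rest on the exon lengths used. Of the 44 receptor tyrosine kinases outside the Eph family, 16 were tested, and 0 passed in limma, where 2.44% of all genes were called. Without adjustment 4 had p under 0.05, against 25.1% of all genes. By voom 2 were called higher, where 9.32% of all genes were called, and without control replicate 3 there were 2 higher and 3 lower, where 28.9% were. Their median log2 change was -0.042 and their range -0.37 to 0.50, with ROR1, a receptor for WNT5A, highest at 5.86 ± 0.543 FPKM in TGF-b1 and 3.87 ± 0.684 FPKM in control libraries (adjusted p = 0.052 in limma, n = 3 each).

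**Figure D4:**
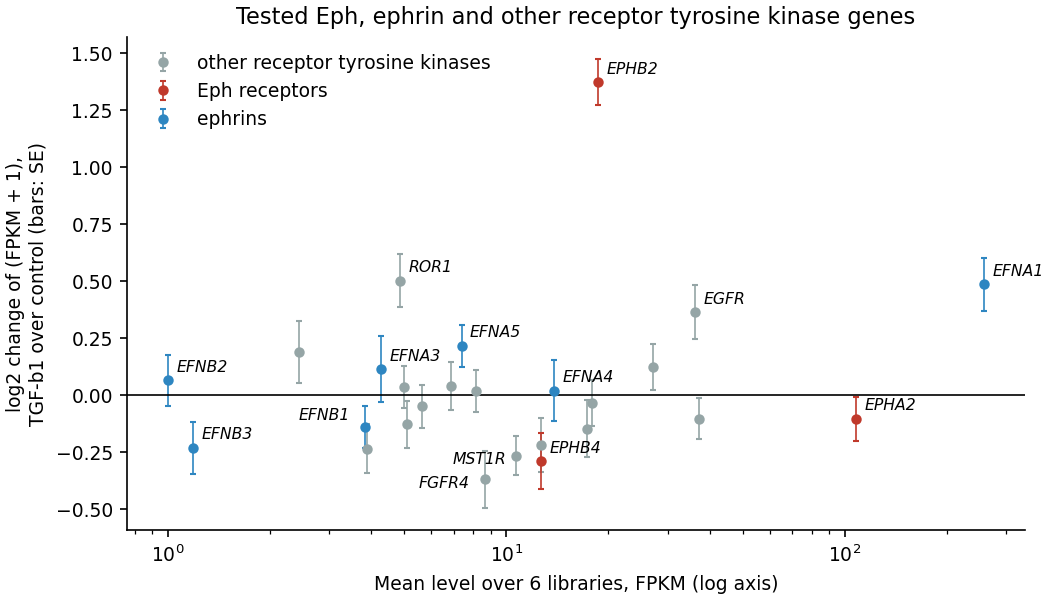
Mean level over 6 libraries in FPKM (log axis) against log2 change of FPKM + 1, TGF-b1 over control, with its SE, for the tested Eph, ephrin and other receptor tyrosine kinase genes. EPHB2 lies at 1.37, the other receptor tyrosine kinases between -0.37 and 0.50, and EPHA2 and EFNA1 lie farthest to the right.

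Proteins that carry or modify Eph and ephrin signals, proteases and phosphatases among them, were followed as 3 lists. Of 24 adaptors and cytoplasmic kinases 20 were tested and 1 fell, where 1.29% of all genes fell. It was GRB7, an adaptor that binds receptor tyrosine kinases through its SH2 domain. GRB7 stood at 13.1, 12.5 and 11.1 FPKM in TGF-b1 libraries, against 19.8, 19.9 and 15.7 FPKM in control libraries, with no overlap. Its log2 change was -0.55 (SE 0.11, adjusted p = 0.029 in limma), and the call was lost without TGF-b1 replicates 2 or 3 or control replicates 1 or 2 (adjusted p 0.089 to 0.14), with no filter (0.28) and without limma's trend and robust estimation (0.054). GRB7 has 59.9% GC, and its log2 change was -0.34 with the GC and length trend taken out (adjusted p = 0.017 in limma). The largest log2 change that did not pass was that of CBL, a ubiquitin ligase that takes activated receptors out of the membrane. CBL was at 14.99 ± 1.16 FPKM in TGF-b1 and 11.5 ± 2.21 FPKM in control libraries, with overlap (log2 change 0.366, adjusted p = 0.13 in limma, n = 3 each). GRB10, named after its values were seen, was almost level at 0.365. It stood at 2.21 ± 0.122 and 1.49 ± 0.0971 FPKM, with no overlap (adjusted p = 0.066 in limma). The list's median log2 change was 0.081. Without control replicate 3, 6 were higher and 1 lower, in the fit that called 28.9% of all genes.

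None of the 11 tested proteins of reverse signalling and PDZ binding passed in limma, where 2.44% of all genes did. Of the list 4 were at an unadjusted p under 0.05 (25.1% of all genes) and 3 were called lower by voom (9.32% of all genes called). Their median log2 change was -0.22, against 0.012 over all genes, and without control replicate 3 there were 6 lower (28.9% of all genes called). PARD6A, a polarity protein with a PDZ domain, had the largest change, at 25.7 ± 2.73 FPKM in TGF-b1 and 40.7 ± 10.1 FPKM in control libraries (adjusted p = 0.096 in limma, n = 3 each). Its control libraries were at 42.5, 49.7 and, in replicate 3, 29.7 FPKM. SDCBP, or syntenin, which binds the tail of ephrin-B proteins, was named after its values were seen and lay at 61.7 to 67.0 FPKM in TGF-b1 and 58.0 to 65.7 FPKM in control libraries.

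Of 19 proteases and phosphatases 12 were tested and 0 passed in limma, where 2.44% of all genes did. At an unadjusted p under 0.05 there was 1 (25.1% of all genes), and voom called 0 (9.32% of all genes). Leaving out control replicate 3 gave 2 higher and 2 lower, where 28.9% of all genes were called. The largest change was that of PSENEN, a subunit of the gamma-secretase that cuts ephrin-B stubs, at 1.92 ± 0.518 FPKM in TGF-b1 and 4.35 ± 1.80 FPKM in control libraries (adjusted p = 0.17 in limma, n = 3 each). Its control libraries were at 5.40, 5.39 and, in replicate 3, 2.28 FPKM, and only replicate 3 overlapped the TGF-b1 range (1.32 to 2.28 FPKM). ADAM10, a metalloprotease that sheds ephrin-A ligands and named after its values were seen, was at 10.0, 9.77 and 9.71 FPKM in TGF-b1 and 7.84, 7.99 and 9.72 FPKM in control libraries. MMP9, a gelatinase, was under the filter and also named after its values were seen, with 56, 53 and 46 fragments in TGF-b1 and 8, 22 and 4 in control libraries.

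Among the tested genes whose library profile lay nearest to that of EPHB2 were COL7A1, the collagen of anchoring fibrils, and UCN2, a peptide hormone of the corticotropin-releasing family. The measure was the mean absolute difference of centred log2(FPKM + 1) over the 6 libraries, and it was 0.084 for COL7A1 and 0.086 for UCN2. COL7A1 stood at 2.35 ± 0.399 FPKM in TGF-b1 and 0.259 ± 0.011 FPKM in control libraries, and UCN2 at 1.46 ± 0.124 and 0.0493 ± 0.0449 FPKM (SD). Both met the filter only through the TGF-b1 libraries, where they are high. The scale understates changes of such low genes, so a near profile here does not mean a ratio like that of EPHB2. For EPHB4, the lowest of the 7, the nearest were ITM2C, CLASRP and PARK7, at 0.021, 0.023 and 0.024.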

How the data were processed

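Total RNA of 6 T24 libraries, 3 TGF-b1 and 3 control, had been sequenced. The submitters' processing notes name HISAT2 2.0.5, featureCounts 1.5.0-p3 and build hg38. Strand setting, annotation release and trimming: not given in the sources used here. Overlapping genes on opposite strands therefore cannot be told apart.

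The deposited values are FPKM per gene, per the file headers, in 1 table whose values the 6 sample files repeat. Its 11 rows of mapping totals were dropped. Exon lengths from GENCODE release 29 (GRCh38) turned 99.999% of the values above 0 into whole fragments (tolerance 0.05). The FPKM denominators so found were 0.962 to 1.03 times the assigned fragments. Where no fragment was seen, up to 3 are allowed (95% level, counting error alone). Duplicate libraries were looked for by chi-square, which per degree of freedom was 6.49 to 28.9 within groups and 14.65 or more between groups, where 1 is sampling noise, and none was found.

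Genes reaching 1 FPKM in 3 or more libraries, 11363 in all, entered limma 3.58.1 (R 4.3.3) as log2(FPKM + 1), using its trend and robust options and Benjamini-Hochberg adjustment over all of them, with 0.05 as threshold. The code was tested on simulated data. The 10 genes, the 6 further lists and the alternatives were chosen with earlier results of these data known. Genes named are the 10, list members past the threshold (up to 4, otherwise the largest change) and nearest profiles; others are marked where they stand. Of these lists and genes, 1 list and 1 gene are not reported here. GC content is that of the gene's longest transcript. The 16 alternatives, listed in the report, include voom on whole fragments, the replicate block and the loss of each library in turn.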

Additional observations from a re-analysis of the deposited data

How the results depend on the processing

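Under 16 alternatives the 7 tested genes gave 110 log2 changes, of which 2 turned sign, those of EPHA2 (0.10) and EFNB1 (0.089) with the GC and length trend removed. Counts of calls among the 10 genes are a description, since the genes were chosen with this contrast known. The genes called numbered 277 over all genes. They were 15 with no filter, 500 at a minimum of 5 FPKM, 767 with the replicate block, 847 over protein-coding genes, 1057 by voom, 512 after removal of the GC and length trend, and 124 to 3280 on leaving out 1 library. Of the 10 genes, 1 was called, and 2 (EPHB2 and EFNA1) at a minimum of 5 FPKM, under both other scalings, over protein-coding genes, by voom and with the trend removed, and 1 to 4 on leaving out 1 library.

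Among the 12 other Eph and ephrin genes 0 were called, and 1 with the trend removed. Of the adaptors and kinases 1 was called, 0 with no filter or without trend and robust estimation, 2 over protein-coding genes, 3 by voom, 3 with the trend removed and 0 to 7 on leaving out 1 library. Of the reverse signalling list 0 were called, 2 at a minimum of 5 FPKM and over protein-coding genes, 1 with the replicate block, 3 by voom, 1 with the trend removed and 0 to 6 on leaving out 1 library. Of the proteases and phosphatases 0 were called, 1 with the replicate block, 1 with the trend removed and 0 to 4 on leaving out 1 library. Of the other receptor tyrosine kinases 0 were called, 1 at a minimum of 5 FPKM, under both other scalings, over protein-coding genes and after trend removal, 2 with the replicate block, 2 by voom and 0 to 5 on leaving out 1 library. In the 10 genes and in each list given here but the 12 other Eph and ephrin genes, the highest count was the one without control replicate 3. The cause was not tested.

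Deviations from the group means correlated between same-numbered libraries at 0.25, -0.071 and 0.17 (Pearson's r across genes, which are not independent replicates), so the numbers were not taken to pair the samples, and TGF-b1 replicate 2 correlated best with control replicate 3. Depth limits EPHA1, EPHA4 and EPHB3, which no alternative but the absence of a filter tested.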
